A study of Mus musculus with 27 samples.

Results

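The response of control C2C12 cells to forskolin was described from 6 RNA-seq libraries of the 27 in the series, 3 from cells that received 10 µM forskolin for 4 h at day 7 and 3 from cells at day 7 without forskolin, and 11993 genes were tested. C2C12 is an established mouse myoblast line. The study compared control cells with cells that express full-length NFIA or its Δpro#3 deletion mutant from a retroviral vector, each at day 0, at day 7 and at day 7 with forskolin, 3 libraries a group. All day 7 groups, the controls included, had been through the same adipogenic protocol, 48 h of isobutylmethylxanthine, indomethacin, dexamethasone, insulin, T3 and rosiglitazone, then insulin, T3 and rosiglitazone. The control cells of both groups thus differ in forskolin alone as far as the labels say, and they carried no ectopic NFIA: Nfia was at 0.0885, 0.253 and 0.0885 FPKM (fragments scaled to exon length and sequencing depth) without forskolin and at 0.0944, 0.195 and 0.139 FPKM with it. The cells are one line, and nothing in the labels says that the libraries came from separate cultures, so the p-values measure the spread between these libraries, which may be technical.

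Forskolin, a plant diterpene, activates adenylyl cyclase directly, so that cyclic AMP rises without a hormone. Cyclic AMP frees the catalytic subunits of protein kinase A, which phosphorylate CREB on cAMP response elements and so induce a first set of genes within the hour, among them the NR4A nuclear receptors, CREM, PER1, the SIK kinases, phosphodiesterases that break cyclic AMP down again, and in liver and brown fat PGC-1α. In many adherent cells the same signal lowers actin tension and the activity of YAP and of SRF with its MRTF cofactors, which drive genes of the cytoskeleton and of matricellular proteins. In muscle, cyclic AMP stands downstream of β-adrenergic input and of prostaglandins and bears on glycogen use, growth and the myogenic regulatory factors.

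The labels call all cells myoblasts, and the libraries carried the transcripts of myotubes. All 16 myotube markers were above 1 FPKM, their summed level ran from 18030 to 21372 FPKM without forskolin and from 17844 to 21081 FPKM with it, and Myog, the factor of terminal differentiation, was at 1254, 1198 and 1374 FPKM without and 1168, 1188 and 1166 FPKM with forskolin against 162 ± 6.04 (SD, n = 3) at day 0. The proliferation marker Mki67 was at most 1.57 FPKM. Markers of other cells were present: Fabp4, the fatty acid carrier of fat cells, was at 142, 161 and 150.3 FPKM and 116, 129 and 101 FPKM, and 9 of 10 fibroblast and mesenchymal progenitor markers were above 1 FPKM. The summed level of these 10 was 1498 to 1676 FPKM without and 1530 to 1763 FPKM with forskolin, most of it from Col3a1. Lep and Ucp1 were listed at 0 in all 6 libraries. Markers of macrophages other than Cd68, of endothelium and of neurons other than Tubb3 stayed under 1 FPKM. The summed smooth muscle markers were at 1353 to 1439 FPKM without and 904 to 1020 FPKM with forskolin, most of it from Acta2 and Tagln, which also belong to the SRF targets described below. In bulk RNA, fewer cells of a type and less RNA per cell cannot be told apart.

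Depth was 11723458 to 16829083 fragments without and 12714515 to 21969037 with forskolin. The 3 untreated control libraries stood apart from the forskolin libraries in one respect that bears on the comparison. Some pseudogenes and other near copies of expressed genes were high in them and in the 9 libraries of day 0 and low in all the other libraries of day 7. The summed level of the 60 tested pseudogenes was 394 to 430 FPKM in the 3 untreated control libraries and 360 to 389 FPKM at day 0, but 218 to 247 FPKM in the 3 forskolin libraries of control cells and 206 to 253 FPKM in the 12 day 7 libraries of the NFIA and Δpro#3 cells. A few loci carried much of this. With Gm48909, Gm6402 and Rpl14-ps1, the 3 pseudogenes called lower, left out (chosen after their values were seen), the sums were 266 to 291 FPKM in the untreated and 203 to 227 FPKM in the forskolin libraries of control cells, 272 to 296 FPKM at day 0 and 195 to 241 FPKM in the 12 libraries. Of the 60, 4 rose and 21 fell in control cells (all genes 7.28% and 14.1%), with a median of -0.17. The median level per library was 2.35 to 2.72 FPKM in the untreated and 1.69 to 2.21 FPKM in the forskolin libraries of control cells, without overlap, and 1.60 to 2.496 FPKM in the 12, which overlapped the untreated control libraries. Rpl14-ps1, a copy of the ribosomal protein gene Rpl14, fell from 87.3, 72.8 and 83.0 to 7.74, 9.31 and 12.5 FPKM, while Rpl14 itself was at 704 to 770 FPKM and at 743 to 810 FPKM. The library numbers in the file headers place the 12 libraries with high sums before the other 15. In control cells, forskolin and this difference between libraries cannot be told apart. In NFIA and in Δpro#3 cells the untreated and the treated libraries are on the same side of it, so their responses are given, as log2 fold changes, beside the leading genes below and many of the others.

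**Figure D1:**
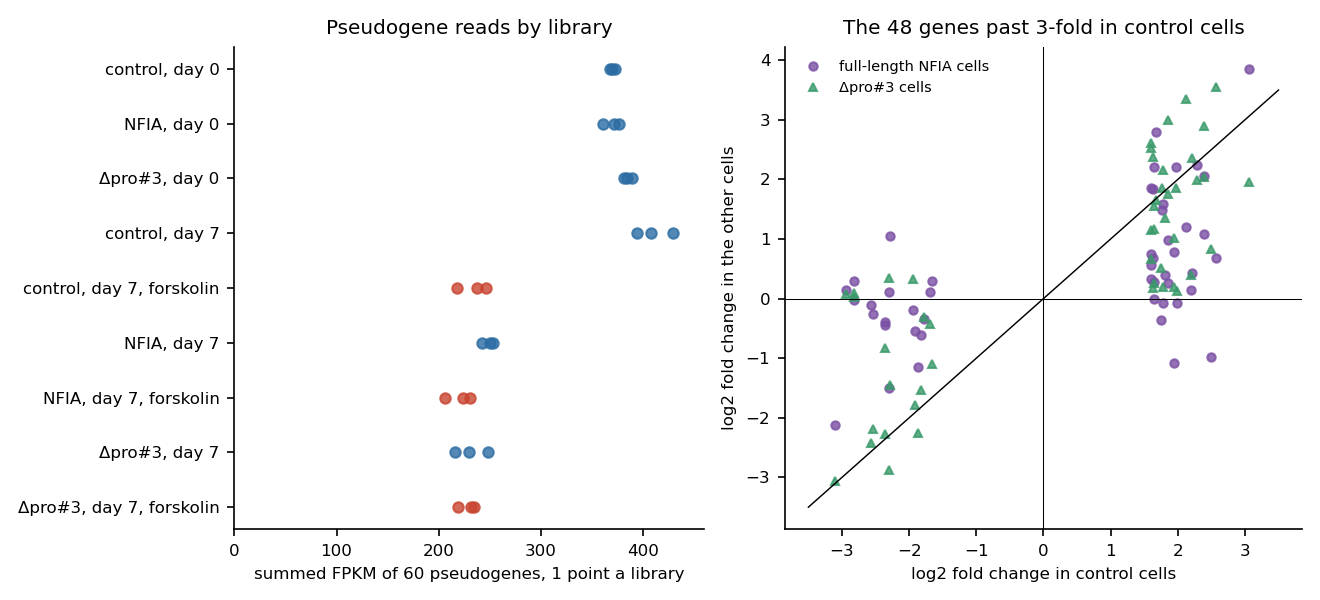
Left, the summed FPKM of the 60 tested pseudogenes in each of the 27 libraries (blue, without forskolin; red, with forskolin), which is 394 to 430 in the untreated day 7 control libraries and 206 to 253 in all other day 7 libraries. Right, the 48 genes that passed both thresholds in control cells, with the log2 fold change in control cells across and that in the NFIA cells (circles) and Δpro#3 cells (triangles) upward; the diagonal marks equal responses, and a group of genes that fell in control cells lies near 0 in both other cells.

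A gene was called when its adjusted p was under 0.05 (limma on log2(FPKM + 1), all 18 day 7 libraries sharing the estimate of the spread) and its level plus 1 changed more than 3-fold. By this rule 30 genes rose, 0.25% of those tested, and 18 fell, 0.15% of those tested. At more than 2-fold, 103 genes (0.859%) rose and 58 (0.484%) fell, and with the adjusted p alone 873 (7.28%) rose and 1696 (14.1%) fell. The small changes lean downward, with a median over all genes of -0.05 on the log2 scale, and with libraries scaled by median ratios the adjusted p alone gives 1139 genes up and 1069 down. In the 48 called genes the 3 libraries of one group did not overlap those of the other, which also holds for 41.8% of all genes tested. The gene closest inside the threshold was Orm2 (1.60) and the closest outside was Vcan (1.57); on the falling side these were Mir133a-2 (-1.66) and BC002163 (-1.58).

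**Figure D2:**
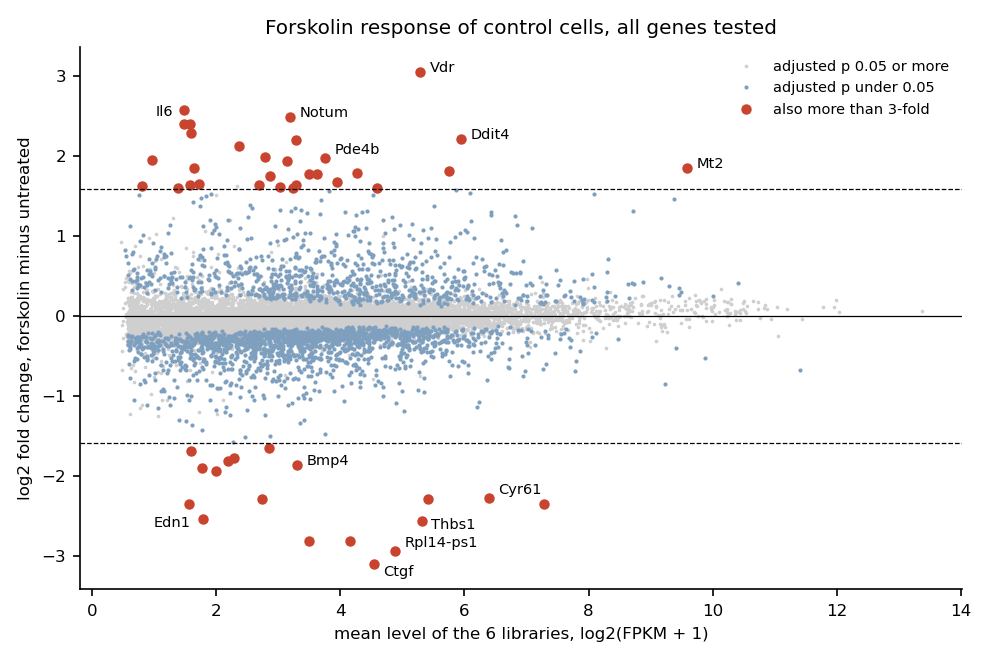
Each point is 1 of the 11993 tested genes, with its mean level over the 6 control libraries in log2(FPKM + 1) across and its log2 fold change with forskolin upward; the dashed lines mark 3-fold. Of the 48 red points 30 lie above and 18 below the lines, and Vdr (3.05) and Ctgf (-3.11) lie farthest out.

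The leading rise was Vdr, the nuclear receptor for vitamin D (chr15:97684856-97741061 in mm9). Vdr was at 11.4, 13.6 and 12.7 FPKM without forskolin and at 111, 116 and 108 FPKM with it. Every treated library was far above every untreated one, a log2 fold change of 3.05 (SE 0.08, adjusted p = 2.2e-13), and the response was 3.85 in NFIA and 1.96 in Δpro#3 cells. Il6, a cytokine that working muscle secretes, went from 0.230, 0.469 and 0.224 FPKM to 5.27, 6.56 and 5.79 FPKM, a log2 fold change of 2.39 (SE 0.16, adjusted p = 1.5e-08, against 2.06 in NFIA and 2.89 in Δpro#3 cells, the order kept below). Thus a gene close to background became moderately expressed in all 3 libraries. Tnfsf11, which encodes the osteoclast factor RANKL, was at 0.264, 0.239 and 0.153 FPKM and at 5.62, 5.97 and 4.72 FPKM (2.40, against 1.08 and 2.03). Csf2rb, the shared β chain of the receptors for GM-CSF, interleukin 3 and interleukin 5, was at 0.377, 0.475 and 0.262 FPKM and 6.32, 5.54 and 5.24 FPKM (2.29, against 2.25 and 1.99). Plaur, the urokinase receptor, was at 9.66, 8.83 and 9.62 FPKM and 32.6, 35.7 and 35.9 FPKM (1.79, against 1.58 and 2.16). These 5 genes rose in all 3 kinds of cell.

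Other leading rises had unequal sizes in the 3 kinds of cell. Ddit4 (REDD1, an inhibitor of mTORC1) was at 25.2, 25.5 and 33.0 FPKM without and 126, 146 and 126 FPKM with forskolin, a log2 fold change of 2.22 (SE 0.12, adjusted p = 1.1e-09). Its response was 2.36 in Δpro#3 and 0.42 in NFIA cells. Notum, a secreted enzyme that inactivates Wnt proteins, was at 2.57, 2.97 and 3.08 FPKM and 20.3, 23.5 and 18.7 FPKM (2.49, SE 0.16), against -0.99 in NFIA and 0.84 in Δpro#3 cells. Prg4 (lubricin) went from 1.26, 1.82 and 1.40 FPKM to 8.98, 12.4 and 8.38 FPKM (2.12, against 1.20 and 3.34). All treated libraries of these 3 genes were above all untreated ones. The difference, control minus NFIA, was 1.79 for Ddit4 (adjusted p = 1.1e-06), 3.48 for Notum (adjusted p = 2.6e-08) and 0.92 for Prg4 (adjusted p = 0.0098).

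For a further group the rise was seen in control cells and was small in the other cells. Slc1a3, the glial glutamate transporter, was at 2.65, 2.53 and 2.27 FPKM and 15.1, 10.2 and 13.4 FPKM in control cells, a log2 fold change of 1.98 (SE 0.11, adjusted p = 1.5e-09), against -0.07 in NFIA and 0.12 in Δpro#3 cells. Orm3, one of the genes of the acute-phase protein orosomucoid, was at 2.63, 3.77 and 4.52 FPKM and 16.5, 24.0 and 20.1 FPKM (2.20, against 0.15 and 0.40), and the neutrophil chemokine Cxcl5 was at 5.15, 6.75 and 5.15 FPKM and 23.5, 18.9 and 23.2 FPKM (1.78, against -0.08 and 0.19). The differences of response passed the test in both comparisons, by 2.05 and 1.87 for Slc1a3, 2.05 and 1.80 for Orm3, and 1.86 and 1.59 for Cxcl5 (control minus NFIA and control minus Δpro#3; largest adjusted p = 0.0022). The part of the library difference in these 3 rises was not tested. Orm1, Orm2 and Orm3 are close copies, and how reads divide between them is uncertain.

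Of the 12 largest rises, 2 rest on few fragments. S100a8, a calcium-binding protein of myeloid cells, had 3 fragments in all without forskolin and 125 with it, a ratio of 34.3 (exact 95% interval 11.5 to 168, counting error only). Snord64, a small nucleolar RNA counted in libraries of polyadenylated RNA, had 0 fragments without and 8 with forskolin, at least 2.19-fold higher against a floor of 3 fragments over the group.

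**Figure D3:**
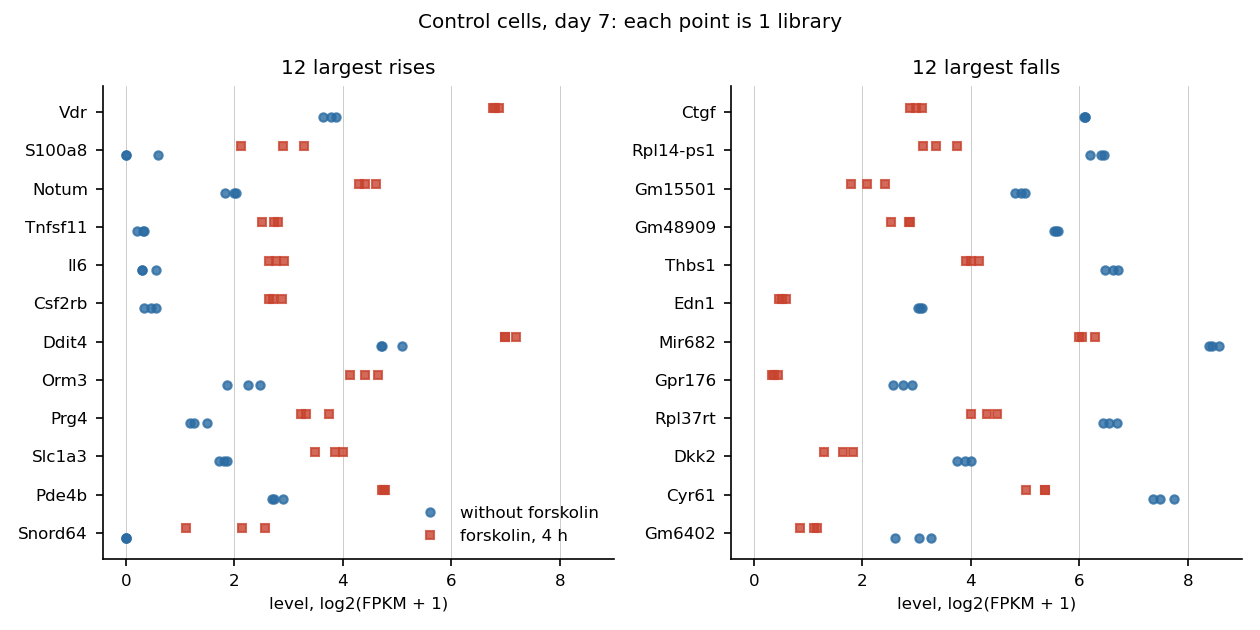
Level in log2(FPKM + 1) of the 12 largest rises (left) and 12 largest falls (right) that were called, had a mean of at least 1 FPKM and did not overlap; circles are the 3 libraries without and squares the 3 libraries with forskolin, and no square falls among the circles of its gene. Rpl14-ps1, Gm15501, Gm48909, Rpl37rt, Gm6402 and Mir682 on the right are among the loci whose level followed the library numbers.

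Several enzymes of cyclic AMP breakdown rose. Of 12 tested phosphodiesterases, 5 rose and 4 fell (all genes: 7.28% and 14.1%), with a median of -0.07 against -0.05 over all genes. Pde4b, a cAMP-specific enzyme (chr4:101760148-102279864 in mm9), was at 5.52, 6.45 and 5.64 FPKM without and at 25.3, 26.0 and 26.4 FPKM with forskolin. The treated values lay close together and well above all untreated ones, a log2 fold change of 1.97 (SE 0.07, adjusted p = 1.6e-11, against 2.20 in NFIA and 1.86 in Δpro#3 cells). Pde4d, of the same cAMP-specific class, was at 4.15, 4.41 and 3.96 FPKM and 11.98, 11.8 and 12.2 FPKM (1.33, against 1.09 and 1.49), and Pde3b, which mediates the effect of insulin on cAMP in fat cells, was at 5.90, 5.80 and 4.94 FPKM and 15.2, 14.2 and 16.5 FPKM (1.32, against 0.96 and 0.97). Pde8a (0.53) and the dual-specificity Pde10a (0.48) rose less. Pde2a (-0.42), Pde4a (-0.41), Pde1b (-0.38) and Pde7a (-0.20) fell, so that the isoforms of a single family, Pde4, went in both directions. Among 27 tested genes of cyclic AMP production and protein kinase A, 1 rose and 6 fell (all genes 7.28% and 14.1%), with a median of -0.06, and with median-ratio scaling 2 rose and 3 fell. The one that rose was Prkar1a (0.17), a regulatory subunit, and the falls were small except for the anchoring protein Akap6, at 14.4, 15.6 and 14.8 FPKM and 9.30, 8.19 and 8.49 FPKM (-0.72, adjusted p = 3.7e-06).

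Among 30 tested early response transcription factors 15 rose and 2 fell (all genes 7.28% and 14.1%), with a median of 0.35. The orphan receptor Nr4a1 (chr15:101097277-101105223 in mm9) was at 15.4, 15.8 and 15.3 FPKM without and 26.95, 31.9 and 25.6 FPKM with forskolin (0.81, SE 0.09, adjusted p = 4.4e-06). Its relative Nr4a3 (chr4:48058025-48099319 in mm9) was at 5.06, 4.76 and 5.62 FPKM and 10.8, 12.1 and 9.69 FPKM (0.95, SE 0.10, adjusted p = 2.8e-06). All treated libraries of both genes were above all untreated ones. Nr4a2 was at 1.14, 1.05 and 1.12 FPKM and 1.46, 1.22 and 1.62 FPKM and did not pass the test (0.21, adjusted p = 0.2). In cells with full-length NFIA the same receptors responded by 3.27 (Nr4a1), 2.72 (Nr4a2) and 4.51 (Nr4a3), and the differences, control minus NFIA, were -2.45 (adjusted p = 1.8e-09), -2.52 (adjusted p = 1.9e-08) and -3.56 (adjusted p = 8.2e-11). In Δpro#3 cells the responses were 0.88, 0.85 and 0.98.

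The AP-1 family moved unevenly. Fosl1, which encodes the AP-1 subunit FRA1, was at 14.2, 10.9 and 13.1 FPKM and 40.4, 38.1 and 35.2 FPKM (1.51, SE 0.12, adjusted p = 2.1e-07, against 2.21 and 2.45) and was the largest rise of the list. Fos (0.32), Fosl2 (0.49), Jun (0.43) and Atf3 (0.52) rose by less, and Junb was at 16.7, 15.6 and 21.8 FPKM and 23.3, 27.2 and 24.9 FPKM (0.47; adjusted p = 0.0502, not past the threshold). Crem, whose inducible product ICER represses cAMP targets, rose from 1.79, 1.71 and 1.67 FPKM to 2.61, 2.31 and 2.63 FPKM (0.37), against 1.53 in NFIA and 0.999 in Δpro#3 cells (differences -1.16, adjusted p = 2.6e-06, and -0.63, adjusted p = 0.0041). The C/EBP factors Cebpb (0.70) and Cebpd (0.91) rose. Egr1, a target of the ERK and SRF pathway, went the other way, from 11.5, 13.3 and 13.1 FPKM to 5.25, 5.92 and 5.07 FPKM (-1.09, adjusted p = 2.0e-07), with -1.37 in Δpro#3 and 0.16 in NFIA cells (control minus NFIA -1.24, adjusted p = 2.6e-06).

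**Figure D4:**
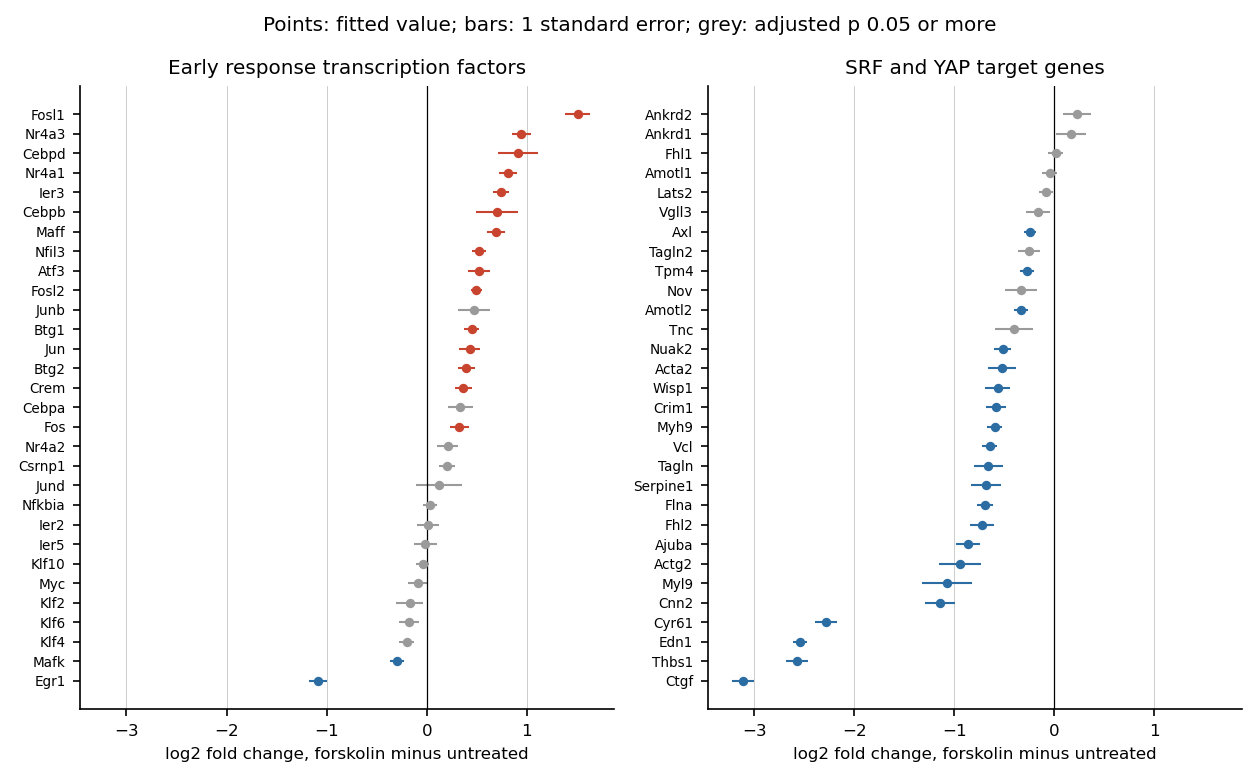
Log2 fold change with forskolin in control cells of the 30 tested early response transcription factors (left) and the 30 tested SRF and YAP target genes (right); points are fitted values, bars 1 standard error, red rose, blue fell, and grey did not pass an adjusted p of 0.05. On the left 15 points are red and 2 blue, on the right 21 are blue and none is red.

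The kinases and metabolic genes known as cAMP targets rose in 8 of 14 tested members, where 7.28% of all genes rose (median 0.40), and fell in 0 by limma, at an unadjusted p under 0.05 and by limma-voom. Sik1, a kinase that CREB induces and that restrains the CREB coactivators, was at 24.7, 26.9 and 29.4 FPKM and 56.8, 62.7 and 54.1 FPKM (1.07, SE 0.08, adjusted p = 3.8e-08, against 1.96 and 1.44). Sik2 (0.83), Sik3 (0.21), Odc1 (0.44) and the clock gene Per1 rose too, Per1 from 22.1, 26.3 and 26.1 FPKM to 37.3, 42.4 and 37.0 FPKM (0.63). Ppargc1a, which encodes the mitochondrial coactivator PGC-1α, stayed at a low level, 0.946, 1.25 and 1.04 FPKM without and 2.06, 2.25 and 1.78 FPKM with forskolin (0.54, adjusted p = 8.5e-04, against 1.51 in NFIA cells). Dio2, the enzyme that activates thyroid hormone, was at 14.2, 13.8 and 12.8 FPKM and 20.2, 17.6 and 20.01 FPKM (0.48, against 1.66 in NFIA cells). Several known cAMP targets of other tissues were too low to be tested. Ucp1 and Tdo2 were listed at 0 in all 6 libraries, and Fgl2 was at 0.122, 0.378 and 0.385 FPKM and 0.278, 0.457 and 0.501 FPKM, with overlap. Alpl, alkaline phosphatase, was at 0, 0.0221 and 0.0634 FPKM and 0.304, 0.400 and 0.146 FPKM, 3 fragments in all against 43, a ratio of 11.8 (exact 95% interval 3.77 to 59.4, counting error only). Pdk4, a cAMP target in many tissues, was at 33.0, 46.8 and 39.99 FPKM and 40.2, 44.7 and 43.1 FPKM, with overlap (0.10, adjusted p = 0.67).

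The promoters of these genes were searched for the cAMP response element, whole (TGACGTCA) or as its 5-letter core TGACG on either strand, in the 250 bases before the start (RefSeq, GRCm38.p6). The whole element contains the core. The segments shown are the parts of the promoters of 6 genes named here that hold a match, which is in capitals together with any 6-letter TEAD motif (GGAATG, either strand). These 6 are examples of promoters with a match. Other named genes held one too, among them Areg, with the whole element, and Per1, with the core.
Nr4a1, chr15:101266598-101266825, plus strand: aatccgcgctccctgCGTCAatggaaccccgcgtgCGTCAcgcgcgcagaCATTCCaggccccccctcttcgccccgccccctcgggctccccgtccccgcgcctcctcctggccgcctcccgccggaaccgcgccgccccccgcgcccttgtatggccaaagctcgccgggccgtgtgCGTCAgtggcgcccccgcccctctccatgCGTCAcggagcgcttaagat
Nr4a3, chr4:48045059-48045177, plus strand: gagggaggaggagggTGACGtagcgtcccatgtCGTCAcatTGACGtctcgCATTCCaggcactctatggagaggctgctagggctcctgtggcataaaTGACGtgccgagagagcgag
Pde4b, chr4:102421506-102421540, plus strand: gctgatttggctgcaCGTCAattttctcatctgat
Il6, chr5:30012964-30012998, plus strand: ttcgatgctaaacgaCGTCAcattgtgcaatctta
Has1, chr17:17855249-17855286, minus strand: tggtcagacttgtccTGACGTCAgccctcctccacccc
Tubb2a, chr13:34078045-34078082, minus strand: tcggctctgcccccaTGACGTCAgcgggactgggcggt
Nr4a1 and Nr4a3 carry several copies of the core, Pde4b and Il6 a single one, and the promoters of Has1 and Tubb2a, described below, the whole palindrome. A promoter entry was matched for 640 of the 873 genes that rose, 1301 of the 1696 that fell and 9416 of all tested. The whole element stood in 3.19% of the promoters of genes that rose, in 1.68% of those that fell and in 2.63% of those of all tested genes, and the core in 26.2%, 21.8% and 26.9%. Of 76 promoters of genes that rose more than 2-fold, 3 held the whole element (3.95%) and 12 the core (15.8%), a lower share of the core than over all tested genes. Over the promoters of all genes in the table the shares were 1.55% and 17.8%. Of 28 promoters of 23 matched early response factors 19 held the core, and they belong to 15 genes. That list was written by hand from known early response genes, so this share describes the list and not the response. A match is a run of letters and not a measured binding site.

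Of the 29 gene lists, that of SRF and YAP targets had the lowest median: of 30 tested members 21 fell, with a median of -0.57 (all genes: 14.1% fell, median -0.05), and 0 rose by limma, at an unadjusted p under 0.05 or by limma-voom. Ctgf, a matricellular protein and standard readout of YAP (chr10:24315248-24318489 in mm9), was at 67.3, 67.7 and 67.8 FPKM without and 6.41, 7.55 and 6.94 FPKM with forskolin. The untreated libraries were nearly equal and every treated one was far below them, a log2 fold change of -3.11 (SE 0.11, adjusted p = 1.2e-11, against -2.11 in NFIA and -3.07 in Δpro#3 cells). Thbs1, thrombospondin 1, was at 103, 97.0 and 87.6 FPKM and 16.7, 14.1 and 15.1 FPKM (-2.57, SE 0.11, adjusted p = 5.4e-11). Edn1, the precursor of the vasoconstrictor endothelin 1, was at 7.40, 7.58 and 7.18 FPKM and 0.511, 0.377 and 0.441 FPKM (-2.54, SE 0.07, adjusted p = 3.8e-13). Cyr61, the matricellular relative of Ctgf, was at 214, 179 and 164 FPKM and 40.4, 31.5 and 40.4 FPKM (-2.28, SE 0.11, adjusted p = 2.8e-10). All 4 genes fell without overlap. In Δpro#3 cells the responses were -2.43 (Thbs1), -2.19 (Edn1) and -1.46 (Cyr61), and in NFIA cells -0.11, -0.26 and 1.05. For all 3 the difference between control and NFIA cells passed the test, at -2.46, -2.28 and -3.33 on the log2 scale.

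The contractile and cytoskeletal members of the list fell by less. Cnn2, calponin 2, was at 116, 106 and 104 FPKM and 51.8, 44.5 and 50.1 FPKM (-1.14, against -1.08 and -0.84). Myl9, the regulatory light chain of nonmuscle and smooth muscle myosin, was at 112, 107 and 108 FPKM and 55.02, 45.5 and 53.5 FPKM (-1.07, against -1.24 and -1.15). Both fell in all 3 kinds of cell, and Actg2 (-0.94), Ajuba (-0.87), Flna (-0.69), Tagln (-0.66), Vcl (-0.65), Myh9 (-0.60) and Acta2 (-0.52) also fell in control cells. Actb, cytoplasmic β-actin, often used as a reference gene, was at 841, 847 and 752 FPKM and 440.1, 428 and 476 FPKM (-0.86, adjusted p = 3.0e-07, against -0.49 and -0.53). It was the single fall among 16 reference genes, of which 2 rose, Pgk1 (0.40) and Tubb5 (0.24). Srf itself fell from 14.4, 13.2 and 11.7 FPKM to 8.61, 8.73 and 8.45 FPKM (-0.55). Ankrd1, a YAP target and a stress-induced muscle protein, did not follow the list: it was at 810.4, 757 and 984 FPKM and 943, 927 and 973 FPKM, with overlap (0.16, adjusted p = 0.49). Of the whole list, 13 of 30 fell and 8 rose in NFIA cells (40.9% and 13.7% of all genes) and 16 fell and 2 rose in Δpro#3 cells (23.7% and 11.8%).

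Promoter segments of 4 of these genes (RefSeq, GRCm38.p6) are shown with the CArG box, the element that SRF binds, the 6-letter TEAD motif and the core of the cAMP response element in capitals.
Cnn2, chr10:79988529-79988568, plus strand: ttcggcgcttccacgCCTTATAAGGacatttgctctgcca
Myl9, chr2:156775288-156775327, plus strand: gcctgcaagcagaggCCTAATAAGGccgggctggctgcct
Cyr61, chr3:145650024-145650103, minus strand: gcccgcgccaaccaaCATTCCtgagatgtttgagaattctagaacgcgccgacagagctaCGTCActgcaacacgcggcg
Edn1, chr13:42301254-42301289, plus strand: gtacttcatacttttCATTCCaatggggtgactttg
Cnn2 and Myl9 hold a CArG box, Cyr61 and Edn1 a TEAD motif. Both motifs were chosen after the results were seen. Among 26 promoters of 22 matched list members 12 held the TEAD motif and 6 the CArG box, against 10.6% and 1.21% of the promoters of all tested genes and 12.6% and 1.47% of all promoters in the table; the list was written from known targets of these factors, so the shares describe the list and not the response.

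Of 37 tested growth factors and cytokines 12 rose and 11 fell (all genes 7.28% and 14.1%), with a median of -0.16. Bmp4, a ligand of the TGF-β family that acts against myogenesis and in favour of adipogenic commitment, was at 18.4, 17.6 and 17.6 FPKM without and 3.94, 4.63 and 4.01 FPKM with forskolin (-1.86, SE 0.11, adjusted p = 1.9e-09, against -1.14 and -2.26). Tgfb2 (-0.69), Tgfb3 (-0.46), Inhbb (-0.67), Fst (-0.65) and Vegfc (-0.81) fell as well. Hgf, the growth factor that activates satellite cells, rose from 10.4, 10.1 and 9.09 FPKM to 20.2, 18.3 and 20.3 FPKM (0.93, against -0.08 and 0.75), and Vegfa from 87.1, 86.6 and 96.2 FPKM to 130.2, 135 and 128 FPKM (0.54). The EGF receptor ligands Areg (0.75) and Ereg (0.74) rose in all 3 kinds of cell. Mstn, myostatin, an inhibitor of muscle growth, rose at a low level, from 0.582, 0.527 and 0.536 FPKM to 1.33, 1.93 and 1.16 FPKM (0.66). Igf1 went from 7.77, 6.99 and 5.92 FPKM to 13.0, 8.32 and 12.02 FPKM (0.60, adjusted p = 0.021) and Igf2 was at 190.1, 204 and 206 FPKM and 196, 207 and 209 FPKM, with overlap (0.03).

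In the list of IGF and insulin signalling 4 of 19 rose and 3 fell (all genes 7.28% and 14.1%), with a median of 0.04. Igfbp4, an IGF-binding protein, was at 33.3, 38.4 and 46.2 FPKM and 108, 135 and 104 FPKM (1.53, against 0.20 and 1.88), and Igfbp2 at 16.8, 16.4 and 20.2 FPKM and 44.3, 46.3 and 38.8 FPKM (1.23, adjusted p = 0.017). Irs1, the insulin receptor substrate, fell from 7.14, 8.15 and 7.05 FPKM to 3.67, 3.23 and 3.73 FPKM (-0.89, against -1.18 and -1.25). Pik3ip1, a negative regulator of PI3 kinase, fell from 8.66, 9.70 and 8.52 FPKM to 4.57, 4.87 and 4.52 FPKM (-0.82).

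Of 21 tested Wnt and Notch genes 3 rose and 7 fell (all genes 7.28% and 14.1%), with a median of -0.14. Dkk2, a secreted Wnt modulator, was at 15.1, 13.9 and 12.4 FPKM and 2.11, 1.45 and 2.57 FPKM (-2.29, SE 0.18, adjusted p = 1.0e-07, against -1.50 and -2.88), and Sfrp4, another one, at 26.6, 19.6 and 18.9 FPKM and 7.97, 6.22 and 7.20 FPKM (-1.47). Notch3, a receptor of the Notch family, rose from 11.9, 13.6 and 13.1 FPKM to 42.2, 42.3 and 38.7 FPKM (1.60, SE 0.11, adjusted p = 3.5e-08, against 0.57 and 1.15), and Notch2 (0.66) and Jag1 (0.35) rose, while the Notch modifier Lfng fell (-0.94). Targets of Notch stood among the repressors of myogenic factors, of which 9 of 21 rose and 5 fell, against the same shares of all genes (median 0.11). Hey1 was at 5.002, 4.96 and 5.11 FPKM and 13.9, 13.6 and 15.8 FPKM (1.35, against -0.45 and 1.05), Heyl at 12.7, 11.4 and 11.1 FPKM and 29.0, 23.6 and 24.8 FPKM (1.07, against 0.21 and 0.32), and Hes1 rose (0.56). Snai1, a repressor that occupies myogenic enhancers in myoblasts, was at 11.8, 11.7 and 13.8 FPKM and 27.9, 28.3 and 26.5 FPKM (1.09, against 1.13 and 1.40).

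The class IIa histone deacetylases, which bind and silence MEF2, moved apart. Hdac4 rose from 9.17, 8.27 and 8.18 FPKM to 15.6, 15.8 and 15.6 FPKM (0.81, SE 0.05, adjusted p = 1.5e-08, against 0.69 and 0.80). Hdac5 fell from 13.1, 14.0 and 14.6 FPKM to 6.58, 6.85 and 6.04 FPKM (-0.99, SE 0.08, adjusted p = 2.1e-07, against -1.19 and -0.91). In each of the 3 kinds of cell the pair went in opposite directions, each past an adjusted p of 0.05. Hdac7 fell (-0.52) and Hdac9 was below 0.2 FPKM in the 6 control libraries of day 7.

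Of 25 tested myogenic factors, 3 rose and 7 fell (all genes 7.28% and 14.1%), with a median of -0.16. Myod1 was at 71.3, 67.2 and 81.0 FPKM and 77.4, 79.5 and 77.6 FPKM, with overlap (0.10, adjusted p = 0.73), Myog differed by -0.12 (adjusted p = 0.69) and Mef2c was at 25.1, 27.7 and 25.9 FPKM and 23.8, 19.5 and 21.5 FPKM (-0.27, adjusted p = 0.12). The early factor Myf5 rose from 24.6, 29.0 and 27.6 FPKM to 39.6, 44.5 and 40.5 FPKM (0.60, adjusted p = 0.0061) and the late factor Myf6 (MRF4) from 109.7, 114 and 156 FPKM to 166, 203 and 161 FPKM (0.49, adjusted p = 0.0065). Vgll2, a muscle cofactor of TEAD proteins, fell from 2.98, 3.28 and 3.57 FPKM to 1.57, 1.08 and 1.72 FPKM (-0.81). The inhibitors of bHLH factors Id1 and Id3 did not pass the test (0.11 and -0.20).

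Most contractile genes did not pass the test. Of 56 tested sarcomere genes 10 fell and 0 rose (median -0.13; also 0 at an unadjusted p under 0.05 and by limma-voom), a share close to the 14.1% of all genes. Tcap, telethonin, had the largest fall, from 97.4, 98.3 and 131 FPKM to 65.8, 64.0 and 54.6 FPKM (-0.80, adjusted p = 3.6e-04), then Myh1, from 246, 250.5 and 316 FPKM to 192, 189.7 and 166 FPKM (-0.56). Acta1, skeletal α-actin, was at 2582, 2828 and 3066 FPKM and 2613, 3230 and 2428 FPKM, with overlap (-0.04), and the embryonic myosin Myh3 at 281, 275 and 316 FPKM and 254, 228 and 219.9 FPKM (-0.31, adjusted p = 0.24). In excitation-contraction coupling 3 of 24 fell, also near the 14.1% of all genes (median -0.14), among them the junctophilins Jph1 (-0.57) and Jph2 (-0.57), in fusion and membrane repair 7 of 21 fell (median -0.14), with Myof (-0.53) first, and limma called 0 rises in either list (1 and 0 at an unadjusted p under 0.05, and 1 and 0 by limma-voom). At the synapse 1 of 16 rose and 5 fell (all genes 7.28% and 14.1%), with a median of -0.06, and with median-ratio scaling 1 rose and 3 fell. Erbb3, a neuregulin receptor, fell from 9.99, 9.90 and 9.02 FPKM to 3.74, 3.40 and 3.37 FPKM (-1.24, adjusted p = 3.1e-06, against -0.83 and -1.02), while the acetylcholine receptor gene Chrna1 was at 102, 113 and 112 FPKM and 114, 110.2 and 105 FPKM (0.01).

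Of 27 genes of atrophy and autophagy 6 rose and 6 fell (all genes 7.28% and 14.1%), with a median of -0.02. The atrophy ligases did not rise. Trim63 (MuRF1) fell from 51.9, 53.2 and 61.0 FPKM to 41.4, 43.3 and 38.9 FPKM (-0.42, adjusted p = 0.0018) and Fbxo32 (atrogin-1) was at 13.7, 15.03 and 13.2 FPKM and 14.3, 14.4 and 14.3 FPKM, with overlap (0.04). The metallothioneins Mt1, at 341, 408 and 460.3 FPKM and 995, 1343 and 1020 FPKM (1.47, against 0.95 and 3.08), and Mt2, at 323, 444 and 463 FPKM and 1326, 1754 and 1359 FPKM (1.86, against 0.98 and 2.99), bind zinc, and both rose without overlap. Ddit4, described above, is the third large rise of this list. Gadd45g fell from 54.9, 49.8 and 63.3 FPKM to 26.9, 29.8 and 28.8 FPKM (-0.95) and rose in NFIA cells (1.21).

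Of 39 tested genes of glucose use 18 rose, 2 fell and 19 did not pass (all genes 7.28% and 14.1% rose and fell), with a median of 0.18. In NFIA cells 15 rose and 13 fell (all genes 13.7% and 40.9%; median 0.02), and in Δpro#3 cells 15 rose and 8 fell (11.8% and 23.7%; median 0.13). Slc2a1, which encodes the glucose transporter GLUT1, was at 89.5, 84.9 and 103 FPKM and 207, 213 and 179 FPKM (1.105, SE 0.10, adjusted p = 5.0e-07, against 0.73 and 1.34). Hexokinase 2, Hk2, went from 46.1, 45.2 and 51.0 FPKM to 70.0, 79.5 and 66.3 FPKM (0.59), and 3 genes of lactate production and transport rose by less, Ldha by 0.43, Slc16a3 by 0.56 and Slc16a1 by 0.47. Pdp1, the phosphatase that activates pyruvate dehydrogenase, fell from 21.1, 26.1 and 22.3 FPKM to 10.7, 9.91 and 10.9 FPKM (-1.07, adjusted p = 3.0e-09, against -0.17 and -0.78). In oxidative phosphorylation limma called 0 of 38 in either direction (median 0.02). At an unadjusted p under 0.05 this was 5 up and 0 down, with limma-voom 1 up and 0 down, and with median-ratio scaling 4 up.

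Of 17 thermogenic genes 5 rose, against 7.28% of all genes, and 2 fell, near the 14.1% of all genes (median 0.10). Ucp2, an uncoupling protein of many tissues, was at 14.8, 16.8 and 16.7 FPKM and 37.8, 43.1 and 34.2 FPKM (1.20, adjusted p = 2.2e-04, against 1.83 and 0.30), and Ppargc1b fell (-0.34). Of 31 adipocyte genes 5 rose and 1, Pparg (-0.25), fell, against the same shares (median 0.09), and with median-ratio scaling the value of Pparg did not pass (-0.20, adjusted p = 0.0713). Scd1, the stearoyl-CoA desaturase, was at 249, 273 and 275 FPKM and 632, 754 and 607 FPKM (1.31, against 0.70 and 1.15), and Dgat1, the last step of triglyceride synthesis, at 14.4, 15.4 and 15.7 FPKM and 29.1, 31.6 and 27.7 FPKM (0.91, against 1.93 and 1.58). Fabp4 and Plin1, which coats lipid droplets, were lower without overlap but did not pass the test. Plin1 was at 2.98, 2.64 and 2.76 FPKM and 1.40, 1.35 and 1.35 FPKM (-0.68, SE 0.29, adjusted p = 0.11), and the summed adipocyte markers were at 177 to 203 FPKM without and 134 to 169 FPKM with forskolin. For Fabp4 (-0.39, SE 0.46, adjusted p = 0.61) the shared spread includes the untreated Δpro#3 libraries, at 688 ± 631 FPKM (SD, n = 3). In a fit of the 6 control libraries alone both passed, with an adjusted p of 0.0117 for Fabp4 (SE 0.0867) and 2.6e-04 for Plin1 (SE 0.0745). Of 24 genes of cholesterol synthesis and uptake 6 rose and 0 fell by limma, against 7.28% and 14.1% of all genes (median 0.13; 2 at an unadjusted p under 0.05, 0 by limma-voom), led by Sqle, at 33.5, 29.6 and 34.6 FPKM and 63.3, 62.6 and 66.7 FPKM (0.96, adjusted p = 1.3e-08, against 1.16 and 1.32).

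Among 40 genes of the extracellular matrix 9 rose, against 7.28% of all genes, and 5 fell, near the 14.1% of all genes (median 0.01). The rises included genes for hyaluronan and its partner proteoglycan. Has1, a hyaluronan synthase, was at 0.847, 1.25 and 1.06 FPKM and 4.74, 5.25 and 4.06 FPKM (1.47, against 1.95 and 1.69) and Has2 at 8.49, 7.11 and 5.17 FPKM and 12.8, 9.82 and 13.5 FPKM (0.73, against 0.53 and 1.15). Vcan, versican, which binds hyaluronan, was at 34.5, 34.6 and 30.0 FPKM and 96.8, 102 and 100.1 FPKM (1.57, SE 0.09, adjusted p = 1.7e-09, against 1.41 and 2.15). A pair of enzymes of sugar nucleotide synthesis, picked after these values were seen, also rose, Ugdh from 57.3, 54.6 and 52.2 FPKM to 129, 132 and 137 FPKM (1.26, against 2.92 and 2.29) and Uap1 from 19.6, 18.5 and 19.1 FPKM to 39.2, 43.5 and 42.2 FPKM (1.09, against 2.47 and 2.16). These 5 genes rose in all 3 kinds of cell. Adamts5, a protease that cuts versican and aggrecan, fell from 31.0, 32.9 and 28.9 FPKM to 15.5, 16.1 and 17.99 FPKM (-0.87, against -1.101 and -1.08). Tubb2a, a β-tubulin whose promoter holds the whole cAMP response element, was at 162, 157 and 161 FPKM and 455, 506 and 427 FPKM (1.52, adjusted p = 3.6e-10, against 2.65 and 1.44).

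**Figure D5:**
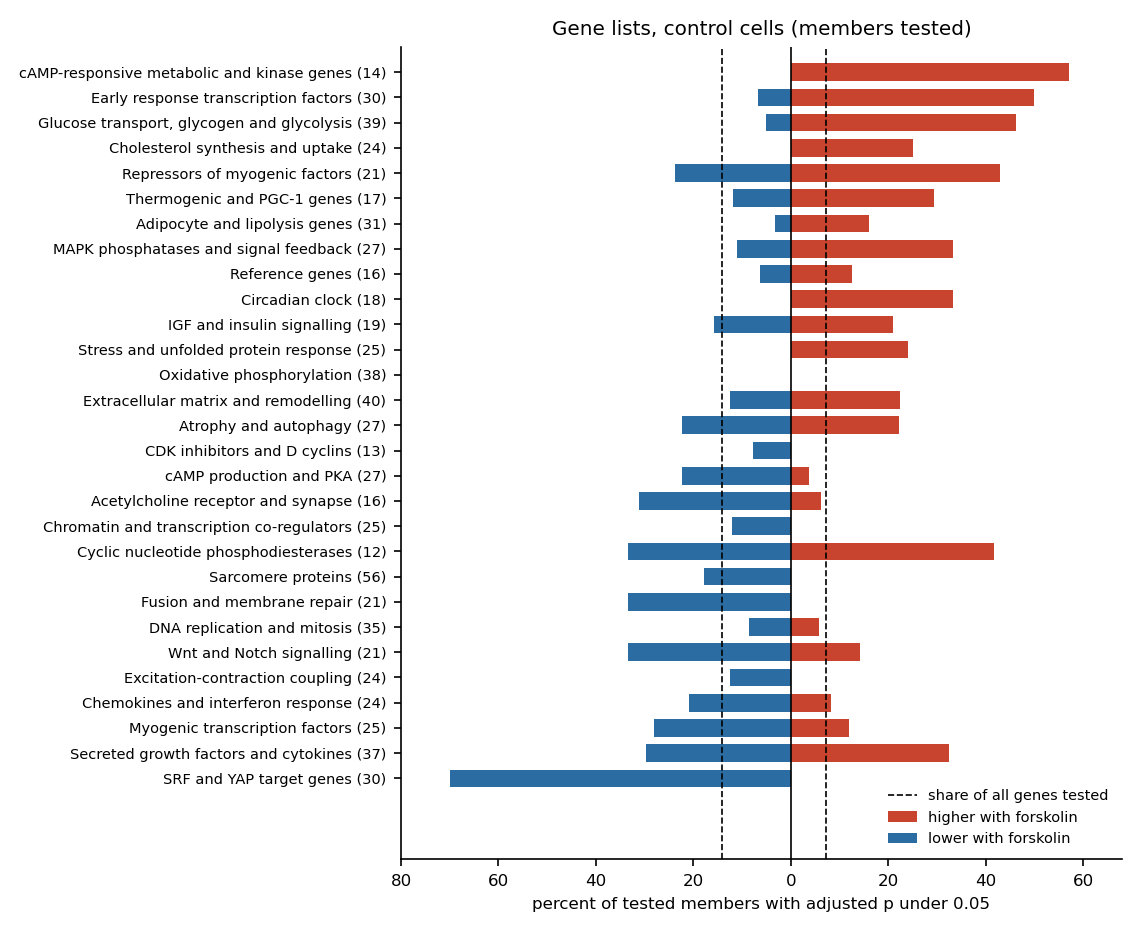
For each gene list, with its number of tested members in brackets, the percent of tested members that rose (red) and fell (blue) at an adjusted p under 0.05, ordered by the list's median; the dashed lines are the shares of all 11993 genes, 7.28% and 14.1%. The SRF and YAP targets stand at one end with 21 of 30 lower, the cAMP-responsive genes at the other with 8 of 14 higher.

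Of 18 clock genes 6 rose and 0 fell by limma, where 7.28% and 14.1% of all genes did (median 0.05; 2 at an unadjusted p under 0.05, 0 by limma-voom), among them Per2, from 9.54, 9.58 and 8.81 FPKM to 15.9, 17.0 and 16.0 FPKM (0.74, against 1.45 and 1.20), Per1, Arntl (0.66) and Bhlhe40 (0.73). Of 27 MAPK phosphatases and feedback regulators 9 rose, against 7.28% of all genes, and 3 fell, near the 14.1% of all genes (median 0.09). Dusp4, a phosphatase of ERK, went from 8.36, 9.48 and 7.91 FPKM to 17.6, 19.5 and 16.5 FPKM (0.98) and Rgs2, a brake on G protein signals, from 42.1, 55.6 and 53.5 FPKM to 88.8, 109 and 102 FPKM (0.98, against -0.22 and 2.11), while Spry1 (-1.04), Rgs3 (-1.02) and Dusp6 (-0.79) fell. In the chemokine and interferon list 2 of 24 rose, near the 7.28% of all genes, Cxcl1, at 4.15, 3.51 and 2.97 FPKM and 17.6, 15.4 and 16.2 FPKM (1.94, against 0.79 and 1.02), and Cxcl5, and 5 fell (median -0.16), among them Ifit2 (-1.004) and Ifit3 (-1.05). In the stress list 6 of 25 rose and 0 fell by limma, against the same shares (median 0.03; 1 at an unadjusted p under 0.05, 1 by limma-voom), with Srxn1 (0.76) and Hsph1 (0.61) first.

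The forskolin response of control cells differed from that of NFIA cells at 2492 genes above 0 (20.8%) and 1086 below 0 (9.06%) in the difference control minus NFIA, and more than 3-fold at 16 (0.133%) and 38 (0.317%). With median-ratio scaling the counts at the adjusted p alone were 1758 above and 1490 below 0, so the size of this lean depends on the scaling. Against Δpro#3 cells the counts without scaling were 286 (2.38%) and 272 (2.27%), and more than 3-fold 7 (0.0584%) and 14 (0.117%). Without untreated control replicate 1 they were 180 and 180, and 4 and 12 more than 3-fold. Without treated control replicate 1 they were 182 and 183, and without treated control replicate 2 the 7 became 4. Of the 30 genes called higher in control cells, 19 also rose in NFIA and 24 in Δpro#3 cells by the adjusted p, where 13.7% and 11.8% of all genes rose. Of the 18 called lower, 6 fell in NFIA and 11 in Δpro#3 cells, where 40.9% and 23.7% of all genes fell. The 30 and the 18 were chosen by their change in control cells, so their control medians lie past 3-fold by that rule. Medians over these genes thus do not compare the 3 kinds of cell on equal terms. The median log2 fold change of the 30 was 1.83 in control, 0.72 in NFIA and 1.70 in Δpro#3 cells, and that of the 18 was -2.29, -0.22 and -1.28. Of the 18, 7 are copy loci whose level followed the library numbers (Rpl14-ps1, Gm15501, Gm48909, Rpl37rt, Gm6402, Psme2b and Mir682), with medians of -2.36 in control, 0.11 in NFIA and 0.07 in Δpro#3 cells. Of the other 11, a split made after these values were seen, 6 fell in NFIA and 10 in Δpro#3 cells, with medians of -2.28 in control, -0.39 in NFIA and -2.19 in Δpro#3 cells. For Gm15501, Gm48909 and Rpl14-ps1 the difference was between -2.85 and -3.01 against Δpro#3 cells and between -2.80 and -3.10 against NFIA cells, and their responses in the other cells were between -0.02 and 0.29. The part of the library difference in the other counts was not tested.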

How the data were processed

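Polyadenylated RNA was sequenced as stranded libraries. The authors aligned the reads to mm9 with STAR 2.5.3a, keeping uniquely mapped reads, and deposited FPKM values for 24825 listed genes per library, made from strand-matched counts; 26 symbols had turned into dates. Within 0.02, 100% of the values were whole multiples of a single fragment, so fragments were recovered and depth is known (9567769 to 27230965 over the 27 libraries). On these fragments limma-voom called 55 genes higher and 43 lower. Intervals and floors cover counting error only.

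Genes with a mean of at least 0.5 FPKM over the 6 control day 7 libraries were tested with limma 3.58.1 (R 4.3.3, trended moderation) on log2(FPKM + 1) in a fit of all 18 day 7 libraries, with Benjamini-Hochberg adjustment; a fold change on this scale understates that of low genes. Genes were called at an adjusted p under 0.05 and more than 3-fold, the fold that the authors' methods use. Whether the 3 libraries of a group came from separate cultures is not given in the sources used here, so p-values measure the spread between these libraries; 3 against 3 libraries cannot reach an exact permutation p under 0.1, so single values were read from the fit. The test was tried on simulated data with the same spread set for every gene and no difference between libraries. That trial therefore does not cover these features of the data.

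Gene lists and the rule for named genes (the 12 largest called rises and falls with a mean of at least 1 FPKM, the 4 largest changes and every called member of each list, a written list of cAMP and muscle genes, the 3 largest differences between cells in each direction) were written with earlier results of these data known, and members were chosen so too. Other genes named were chosen after their values were seen. Gene positions are those of GENCODE vM1 (mm9), promoters those of RefSeq (GRCm38.p6), matched by symbol or synonym, 250 bases before the start; the 2 builds were not mixed. Alternatives were another pseudocount, scaling, filters, a fit without a trend, limma-voom on fragments, a replicate block, only the groups compared, leaving out each library, other fold thresholds and the whole 300-base promoter window.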

Additional observations from a re-analysis of the deposited data

Results flagged for a closer look

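The values here are differences of the forskolin response on the log2 scale, control cells minus the other cells, for named genes for which limma gave an adjusted p under 0.05 and more than 3-fold. Each stands here because the response differed between kinds of cell by the test of the difference itself.

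Against full-length NFIA cells, the response of control cells was higher for Notum (3.48), Snord64 (3.03), G0s2 (2.11), Orm3 (2.05), Slc1a3 (2.05), S100a8 (1.89), Cxcl5 (1.86), Hey1 (1.81) and Ddit4 (1.79). G0s2, an inhibitor of the lipase ATGL, was at 48.6, 49.9 and 53.5 FPKM and 55.3, 51.1 and 56.8 FPKM in control cells and went from 918 ± 48.8 to 227 ± 13.5 FPKM (SD, n = 3) in NFIA cells. Snord64 rests on 8 fragments in control cells. The response of control cells was lower for the nuclear receptors Nr4a3 (-3.56), Nr4a2 (-2.52) and Nr4a1 (-2.45), for Cyr61 (-3.33), Thbs1 (-2.46), Edn1 (-2.28), Gadd45g (-2.16), Gpr176 (-1.96) and Ugdh (-1.66), and for the small nucleolar RNA Snord91a (-3.30). Nr4a3 went from 1.17 ± 0.145 to 48.4 ± 2.42 FPKM in NFIA cells. Cyr61 went from 29.7 ± 4.24 to 62.2 ± 2.86 FPKM in NFIA cells and fell in control cells.

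Against Δpro#3 cells, it was higher for Igf1 (2.11), Mir1192 (2.08), Slc1a3 (1.87), Orm3 (1.80), Notum (1.65) and Cxcl5 (1.59). Igf1 was at 12.5 ± 3.62 FPKM without and 3.68 ± 0.820 FPKM with forskolin in Δpro#3 cells. Mir1192 had 2 fragments without and 9 with forskolin in control cells, a ratio of 3.70. Its exact 95% interval, 0.766 to 35.2 by counting error only, includes no change. It was lower for Mt1 (-1.61), which rose in all 3 kinds of cell.

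The copies of expressed genes formed a group of their own. The differences against NFIA and Δpro#3 cells were -3.10 and -2.91 for Gm48909, -3.08 and -3.01 for Rpl14-ps1, -2.80 and -2.85 for Gm15501, -2.40 and -2.65 for Rpl37rt and -1.75 and -2.26 for Gm6402, and Psme2b was at -1.80 and the miRNA locus Mir682 at -1.92 against NFIA cells. Forskolin and the difference between libraries cannot be told apart for them. No group of 3 libraries was tested for a library far from the others.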

How the results depend on the processing

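Of 186 counts under other settings, 162 were within 1.5 times the reported count. With a pseudocount of 0.1, 51 genes were higher and 39 lower in control cells, 52 above and 66 below 0 in the difference to NFIA and 13 and 22 in that to Δpro#3 cells; limma-voom on fragments gave 55 and 43, 68 and 69, and 16 and 25. With a minimum mean of 5 FPKM, 11 genes were lower, and 24 and 8 were below 0 in the differences to NFIA and Δpro#3 cells. With median-ratio scaling 1069 genes were lower at the adjusted p alone, and 51.6% of the genes at that threshold were higher, against 34.0%. A 2-fold threshold gave 103 and 58, and protein-coding genes only, chosen after seeing the data, 11 lower. All 30 and 18 calls remained under scaling, no filter, no trend, voom, the block and the fit of only the groups compared.

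Without single libraries, the counts over 3-fold were 25 to 33 higher and 18 to 20 lower; the difference to Δpro#3 cells ran from 4 to 8 above 0 over 3-fold, and at the adjusted p alone from 180 to 231 above and 180 to 245 below (286 and 272 with all libraries), the lowest without untreated replicate 1; without treated replicate 1 it was 182 and 183, and without treated replicate 2 the count over 3-fold was also 4. Without treated replicate 2, Crispld2, Erfe, Notch3, Orm2, Prrg4 and Snord35b were no longer past 3-fold. Each of these genes was also lost on leaving out another library, Notch3 without untreated replicate 1 and without treated replicate 1.

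Same-numbered libraries deviated together weakly at most (correlations 0.11, -0.06 and -0.13, with untreated libraries 2 and 3 closest to another number). With 3 libraries a group, these correlations cannot exclude that same-numbered libraries were handled together. With the replicate block 30 genes were higher and 18 lower. Of 2590 values of named genes under other settings, 2498 kept their direction and their side of the threshold, 52 no longer passed and 30 newly passed it, and of 435 list medians 361 moved by less than the spread between replicates. In the fit of only the groups compared, by limma, Fos (adjusted p = 0.0528) and Akap7 (0.0649) no longer passed, while Junb (0.0155), Mef2c (0.0270), Myh3 (0.0137) and the respiratory chain genes Cox5b (0.0230), Cox7b (0.0403) and Ndufa4 (0.0363) were among those that newly passed. 6 named genes with values near 0, none past the test, changed sign. Without single libraries Acta1 ran from -0.162 to 0.0439 (0.0128 under median-ratio scaling), Chrna1 from -0.0394 to 0.0401, Fbxo32 from -0.00118 to 0.0870, Id1 from -0.00482 to 0.337, Igf2 from -0.00829 to 0.0569 and Pdk4 from -0.0216 to 0.224. Over the whole 300-base window the cAMP response element stood in 3.78% of promoters of genes that rose and 3.13% of those tested.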

Other observations

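Of 35 genes of DNA replication and mitosis 2 rose and 3 fell, both below the shares of all genes (7.28% and 14.1%), with a median of -0.14. With median-ratio scaling 2 of them rose and 1 fell. The ribonucleotide reductase subunit Rrm2 was at 65.6, 66.2 and 76.8 FPKM without and 95.6, 103 and 102 FPKM with forskolin (0.52, adjusted p = 0.0046), and Mcm6, a subunit of the replicative helicase, fell from 11.1, 9.36 and 7.76 FPKM to 6.06, 5.99 and 6.44 FPKM (-0.53). Of 13 CDK inhibitors and D cyclins 1 fell, Ccnd1, from 8.77, 10.1 and 9.21 FPKM to 6.39, 5.30 and 6.42 FPKM (-0.56), and 0 rose by limma, at an unadjusted p under 0.05 or by limma-voom. Of 25 chromatin and transcription co-regulators 3 fell, near the 14.1% of all genes, led by Cited2, at 64.0, 68.5 and 72.4 FPKM and 41.1, 43.7 and 47.8 FPKM (-0.62), and 0 rose by limma and limma-voom (4 at an unadjusted p under 0.05), while with median-ratio scaling 2 rose and 1 fell.

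By annotation, 11347 of the 11993 tested genes were protein-coding, and so were 28 of the 30 genes called higher and 11 of the 18 called lower. These 11 include the copy loci Gm15501, Rpl37rt and Psme2b and are not the 11 left above without the copy loci. Over all tested genes 0.25% were called higher and 0.15% lower. Of 135 tested miRNA loci, counted from reads of polyadenylated RNA and so not from mature miRNAs, 4 were called lower, the copy locus Mir682 among them. Of 79 small nucleolar RNAs 2 were called higher, and of 60 pseudogenes 3 were called lower. The median exon length of the 18 was 1209 bases against 2921 for all tested genes.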
